A study of Mus musculus with 8 samples.

Results

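The subject is the heterotrimeric G proteins of mouse dorsal root ganglia (DRG) and the RGS proteins that switch them off, read as ribosome footprints. Members were chosen by symbol: every gene named as a G protein alpha, beta or gamma subunit or as a numbered RGS protein in both deposited tables, without antisense and pseudogene rows. This gave 54 of 48315 gene symbols, namely 16 alpha, 5 beta, 12 gamma and 21 RGS genes. DRG lie beside the spinal cord and hold the cell bodies of sensory neurons with their glia. The 8 libraries came from wild-type (WT) mice of the strain SW that had received saline, with 4 libraries labelled female and 4 labelled male, numbered 1 to 4 within each label; no ages are given in the labels used here. Nothing in the labels says that libraries came from separate animals. The p-values of the label comparison below set the difference between labels against the scatter of these libraries, and that scatter may be technical. Levels are in CPM, reads per 1000000 reads assigned to genes, and assigned reads ran from 3697690 in the library labelled male 1 to 12714548 in male 3, so that 1 read was worth 0.270 and 0.0787 CPM there.

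The sex labels did not hold in 3 libraries. The summed level of 4 Y-linked genes (Ddx3y, Eif2s3y, Kdm5d and Uty) was 121, 0.351, 138 and 0.277 CPM in the libraries labelled female 1 to 4, against 2.70, 92.8, 125 and 92.5 CPM in those labelled male 1 to 4. Xist, made from the inactive X chromosome, was at 0.175, 7.45, 0 and 6.92 CPM in female 1 to 4 and 10.6, 0.558, 0.472 and 0 CPM in male 1 to 4. Female 1, female 3 and male 1 thus went against their labels. Female 1 and female 3 were also alike: 1.26% of coding genes differed between them beyond p of 0.001 by a chi-square test on reads, where the other 27 pairs of libraries differed in 11.2% to 38.0%. The tissue label fitted the markers read, with all 14 sensory neuron markers above 1 CPM and a summed level between 10605 and 15446 CPM.

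A G protein is a trimer that carries a signal from a receptor in the membrane to enzymes and channels inside the cell. The alpha subunit binds GTP when the receptor is active and parts from the beta-gamma pair; both parts act on effectors until the alpha subunit hydrolyses its GTP, a step that RGS proteins speed up. Alpha subunits fall into the Gs class, which raises cyclic AMP, the Gi/o class, which lowers it and frees the beta-gamma pairs that open potassium channels and close calcium channels, the Gq class, which activates phospholipase C beta, and the G12/13 class, which acts on the cytoskeleton through guanine nucleotide exchange factors. In sensory neurons Gi/o proteins carry the signals of opioid receptors, and Gq and Gs proteins those of many inflammatory mediators.

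All 4 families were read in every library, and a small number of genes carried most of the footprints of each. Of the 54 members, 44 averaged 1 CPM or more over the 8 libraries and 31 averaged 10 CPM or more. The 16 alpha genes summed to 1955 ± 379 CPM, the 5 beta genes to 816 ± 158 CPM, the 12 gamma genes to 346 ± 56.4 CPM and the 21 RGS genes to 883 ± 219 CPM (SD, n = 8). In bulk tissue, fewer cells of a type and less RNA per cell cannot be told apart in such levels. A sum in CPM favours long genes, and gamma subunits have coding sequences of about 201 to 249 bases where alpha subunits have at least 1050. Levels of different genes are therefore compared below per kilobase of the longest annotated coding sequence. On that scale Rgs4 ranked 71 of 14082 coding genes, Gng3 80, Gnao1 176, Gng2 210 and Gnb1 216.

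**Figure D1:**
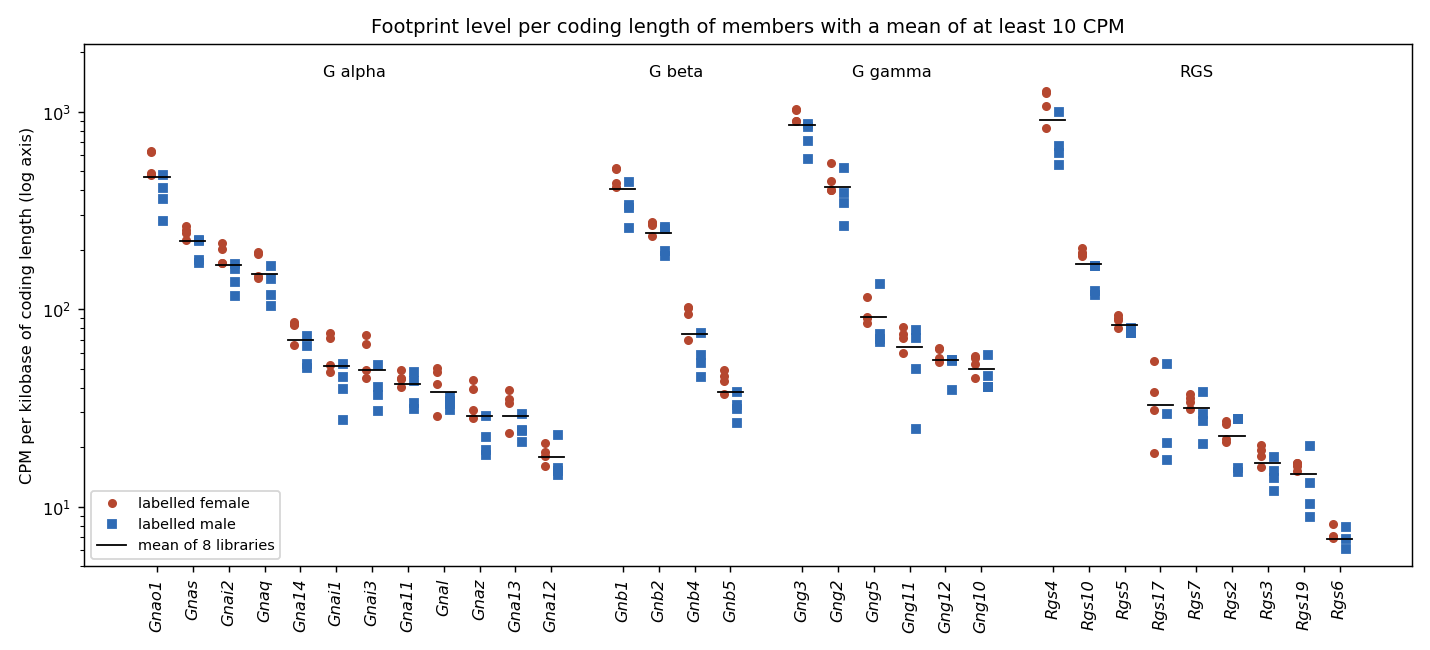
Footprint level of the 31 members averaging 10 CPM or more, in CPM per kilobase of coding length on a log axis; circles are the 4 libraries labelled female, squares the 4 labelled male and bars the mean of 8. Rgs4 and Gng3 stand at the top with means of 904 and 854 CPM per kilobase, and in every gene shown but Gnal the lowest point is a library labelled male.

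Among alpha subunits the neuronal Gi/o protein Gnao1 had the highest level per kilobase when every gene is divided by its longest coding sequence. Gnao1 (chromosome 8, 93809966 to 93969388, GRCm38), which encodes G alpha o, was at 469 ± 121 CPM per kilobase (SD, n = 8). Its levels were 674, 509.9, 660.5 and 521 CPM in female 1 to 4 and 297, 434, 505 and 382 CPM in male 1 to 4, so that the 4 libraries labelled female all lay above the 4 labelled male. Gnas (chromosome 2, 174284320 to 174346744), which encodes G alpha s, followed at 222 ± 33.2 CPM per kilobase. The order of these 2 genes depends on the length chosen: the longest coding sequence of Gnas, of 3399 bases, belongs to an extra-large form, and with the 1182 bases of the principal transcript Gnas was at 637 ± 95.6 CPM per kilobase, above Gnao1. Which form of Gnas the reads came from was not tested, and Nespas, an antisense gene, overlaps the locus.

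The rest of the alpha genes with at least 10 CPM formed a long tail. Gnai2, the broadly made G alpha i2, was at 168 ± 32.5 CPM per kilobase and Gnaq, the main activator of phospholipase C beta, at 150.5 ± 31.9. The 8-library spreads of both overlap. Their coding lengths are alike, at 1065 and 1077 bases. Within single libraries Gnai2 was above Gnaq except in male 3, at 170 against 178 CPM. Gna14, another Gq class gene, stood at 70.04 ± 13.9 CPM per kilobase, above its relative Gna11 at 41.8 ± 6.53. Gnai1 and Gnai3, at 51.6 ± 15.9 and 49.2 ± 14.7 CPM per kilobase, cannot be ordered against each other at these spreads. Gnal, which encodes the olfactory form of G alpha s, was at 37.9 ± 8.03 CPM per kilobase. Gnaz, a Gi class protein, Gna13 and Gna12 closed this set at 28.8 ± 9.11, 28.8 ± 6.46 and 17.8 ± 3.01 CPM per kilobase.

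The end of the alpha subunit's coding sequence is shown because it helps to set which receptors a subunit meets: the tail of the protein fits into the receptor, and in most Gi/o proteins it holds the cysteine that pertussis toxin modifies. The last 30 coding bases, stop codon included, of GENCODE M21 principal transcripts (GRCm38, coding strand, 5′ to 3′) follow, with the codon 4 places before the stop in capitals.
Gnao1: aacaatctccggggcTGCggcttgtactga
Gnai1: aataacctaaaagacTGTggtctcttctaa
Gnai2: aacaacctgaaggacTGTggcctcttctga
Gnai3: aacaacttaaaggaaTGTgggctttattga
Gnaz: aacaatctcaagtacATCggcctttgctga
Gnaq: ctgaacctgaaggagTACaatctggtctaa
Gna11: ctgaacctgaaggagTACaacctggtgtga
Gna14: ctaaacctacgggagTTCaacttggtgtaa
Gnas: atgcatctccgccaaTACgagctgctctaa
Gna13: gacaacctgaagcagCTCatgctgcagtga
The capitals are TGC or TGT, the codons of cysteine, in Gnao1, Gnai1, Gnai2 and Gnai3, and ATC in Gnaz, which is known as resistant to the toxin. That codon does not tell the other classes apart, as Gnas of the Gs class shares TAC with Gnaq and Gna11 of the Gq class, while Gna14 has TTC. The 3 Gnai genes together and Gnao1, all with the cysteine codon, stood at 269 ± 62.02 and 469 ± 121 CPM per kilobase, against 28.8 ± 9.11 for Gnaz. Gnao1 exceeded the summed Gnai genes 1.74 ± 0.0891-fold (n = 8), with the 8 libraries between 1.61 and 1.83. Taken by class, Gi/o genes held 56.9% ± 2.48 of the alpha level per kilobase, Gs genes 19.7% ± 1.68, Gq genes 19.9% ± 0.809 and G12/13 genes 3.53% ± 0.326 (SD, n = 8). With principal coding lengths the Gi/o and Gs shares were 43.2% ± 2.74 and 39.1% ± 2.55, which again turns on the length given to Gnas.

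Gnb1 and Gnb2 made up most of the beta subunit footprints. Gnb1 (chromosome 4, 155491361 to 155559269) was at 405 ± 92.7 CPM per kilobase and held 52.8% ± 2.40 of the family, and Gnb2 (chromosome 5, 137528127 to 137533510) at 243 ± 34.2 with 32.3% ± 3.55 (SD, n = 8). Gnb1 exceeded Gnb2 1.66 ± 0.245-fold, and in all 8 libraries by a ratio between 1.28 and 1.94. Gnb4, another beta subunit that pairs with gamma subunits, was at 75.2 ± 22.4 CPM per kilobase with 9.69% ± 1.26 of the family. Gnb4 was the most variable of the 4 abundant beta genes, at 104, 71, 104 and 96.7 CPM in female 1 to 4 and 45.97, 59.6, 76.9 and 54.7 CPM in male 1 to 4. Its levels in female 2 and male 3 crossed, so the labels overlapped in Gnb4. Gnb3, the beta subunit of cone photoreceptors, averaged 1.67 ± 0.787 CPM.

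Gnb5 differs from the other beta subunits in its partner: it pairs with RGS proteins of the R7 group (Rgs6, Rgs7, Rgs9 and Rgs11) in place of a gamma subunit, and each side is unstable without the other. Gnb5 stood at 37.9 ± 7.73 CPM per kilobase and the 4 R7 genes summed to 44.6 ± 7.61 CPM per kilobase. The ratio of Gnb5 to that sum was 0.850 ± 0.0877 (SD, n = 8), between 0.722 and 0.999 in single libraries. The highest ratio was in female 1 and the lowest in male 3. Rgs7 supplied most of the R7 sum at 31.7 ± 5.82 CPM per kilobase, and Rgs6, Rgs9 and Rgs11 were at 6.81 ± 1.10, 3.11 ± 1.14 and 3.05 ± 0.552. A ratio of footprint levels per length is not a ratio of proteins.

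Gng3 and Gng2 led the gamma subunits. Gng3 (chromosome 19, 8836933 to 8839194), a gamma subunit of neurons, was at 854 ± 150.1 CPM per kilobase and held 54.3% ± 4.05 of the gamma level, and Gng2 (chromosome 14, 19872559 to 19977627) at 413 ± 91.4 with 26.2% ± 3.13 (SD, n = 8). Gng5, Gng11, Gng12 and Gng10 followed at 90.9 ± 22.7, 63.9 ± 18.8, 55.1 ± 7.39 and 49.5 ± 7.73 CPM per kilobase, and the spreads of the last 3 overlap. Gng8 and Gng7 were lower, at 20.4 ± 8.12 and 15.5 ± 5.01, and Gng4 at 6.45 ± 3.51. Gng3 was at 228, 202, 232 and 201 CPM in female 1 to 4 and 130.1, 188, 194 and 160.4 CPM in male 1 to 4, with every library labelled female above every library labelled male. Gng7, which pairs with the Gnal product in the striatum, was thus far below Gng3 and Gng2 per kilobase in these ganglia, while Gnal itself was in the middle of the alpha family.

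The gamma subunit anchors the beta-gamma pair in the membrane through a lipid on a cysteine near its end, and the last residue selects the lipid, so the end of the coding sequence is shown for the 6 highest genes. The last 30 coding bases of GENCODE M21 principal transcripts (GRCm38, coding strand) are given with the last 4 codons before the stop in capitals.
Gng3: gagaagaagttcttcTGTGCGCTCCTCtga
Gng2: gagaagaagttcttcTGCGCCATCCTTtaa
Gng5: agaccccagaaagtcTGCTCCTTTTTGtag
Gng11: aaagaaaagggcagcTGTGTCATTTCAtaa
Gng12: aaggataagaagaccTGCATCATCTTAtag
Gng10: cgggagcccaggtccTGTGCTCTACTTtga
Each run of capitals opens with TGC or TGT, a cysteine codon. It closes with a leucine codon (CTC, CTT, TTG or TTA) in Gng3, Gng2, Gng5, Gng12 and Gng10, the ending that is read as a signal for a geranylgeranyl group, and with TCA, a serine codon, in Gng11, whose product is known to carry a farnesyl group. Gng11 held 3.98% ± 0.823 of the gamma level per kilobase. The enzymes that add these lipids were read too: Fnta and Fntb, which form farnesyltransferase, were at 69.5 ± 9.59 and 68.9 ± 9.21 CPM per kilobase, and Pggt1b, which joins the Fnta product in the enzyme for the other lipid, at 12.4 ± 1.86 (SD, n = 8).

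Rgs4 alone held more of the RGS level than all other RGS genes together. Rgs4 (chromosome 1, 169741477 to 169747642), which speeds GTP hydrolysis on Gi/o and Gq proteins, was at 904 ± 283 CPM per kilobase and held 67.9% ± 4.58 of the family (SD, n = 8), between 60.5% and 73.5% in single libraries. Its levels were 782, 509, 764 and 657 CPM in female 1 to 4 and 329.7, 381, 612 and 412 CPM in male 1 to 4, highest in female 1 and lowest in male 1, and the labels overlapped through female 2 and male 3. Rgs10 (chromosome 7, 128373621 to 128418758), a small regulator of Gi/o proteins known from neurons and microglia, followed at 168 ± 32.4 CPM per kilobase. Rgs5 (chromosome 1, 169655501 to 169695813), known as a marker of pericytes, came next at 82.6 ± 6.71.

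The remaining RGS genes lay below 40 CPM per kilobase. Rgs17, a regulator of Gz and Gi/o proteins, and Rgs7 were at 32.9 ± 14.7 and 31.7 ± 5.82 CPM per kilobase and cannot be ordered at these spreads. Rgs2, which acts mainly on Gq, was at 22.8 ± 5.27, Rgs3 at 16.6 ± 2.91, Rgs19, a regulator of Gi/o proteins also called GAIP, at 14.7 ± 3.71 and Rgs6 at 6.81 ± 1.10. Rgs8, Rgs9, Rgs11, Rgs12, Rgs14, Rgs16, Rgs18 and Rgs20 had means between 1.80 CPM (Rgs16) and 9.39 CPM (Rgs12). By group, R4 genes held 79.1% ± 2.78 of the RGS level per kilobase, R12 genes (Rgs10, Rgs12 and Rgs14) 13.6% ± 2.13, RZ genes (Rgs17, Rgs19 and Rgs20) 3.88% ± 1.19 and R7 genes 3.48% ± 0.463.

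The start of the coding sequence is shown for RGS genes because the second codon decides whether the protein can enter a degradation route: RGS proteins that begin with methionine and cysteine lose the methionine, and oxidation of the exposed cysteine marks them for the N-degron pathway. The first 30 coding bases of GENCODE M21 principal transcripts (GRCm38, coding strand) have the second codon in capitals.
Rgs4: atgTGCaaaggacttgcaggtctgccggct
Rgs5: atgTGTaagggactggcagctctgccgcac
Rgs16: atgTGCcgcaccctagccaccttccccaac
Rgs2: atgCAAagtgccatgttcctggctgtccag
Rgs10: atgTTCacccgcgccgtgagccgactgagc
Rgs17: atgAGAaaacggcagcagtcacaaaatgaa
The capitals are TGC or TGT, both cysteine codons, in Rgs4, Rgs5 and Rgs16, the 3 RGS proteins known as substrates of that pathway, and other codons in Rgs2, Rgs10 and Rgs17. Rgs4 and Rgs5, among the 3 RGS genes of highest level, thus carry this second codon, at 904 ± 283 and 82.6 ± 6.71 CPM per kilobase, while Rgs16 was at 2.98 ± 1.12. Footprints count ribosomes on RNA and say nothing of how long the protein lasts.

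The 10 members below 1 CPM included the G proteins of light and taste cells. Gnat1 and Gnat2, the alpha subunits of rod and cone photoreceptors, averaged 0.0729 ± 0.0987 and 0.184 ± 0.128 CPM, and Gnat3, the alpha subunit of taste cells, 0.0684 ± 0.0770 CPM (SD, n = 8), all at about the level of 1 read. Gngt1, the rod gamma subunit, and Rgs13 were listed at 0 in all 8 libraries, where 3 reads would be between 0.236 CPM in male 3 and 0.811 CPM in male 1; such a floor covers counting error only. Gngt2, Gng13, Rgs1, Rgs21 and Rgs22 completed this set, the highest being Gngt2 at 0.891 ± 0.454 CPM. Gna15, the Gq class gene of blood cells, was just above it at 1.59 ± 0.487 CPM.

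Several of these low genes lie next to a member that was well read. Gnat2 lies 5.85 kb from Gnai3 on chromosome 3 and averaged 0.184 CPM against 52.3 for Gnai3. Gnat1 lies 39.1 kb from Gnai2 on chromosome 9, at 0.0729 against 179 CPM, and Gnat3 lies 245 kb from Gnai1 on chromosome 5, at 0.0684 against 54.8 CPM; in each of these pairs the coding lengths are alike, at between 1050 and 1065 bases. Each of the 3 Gnai genes was thus read at over 50 CPM beside a transducin or gustducin gene at the level of single reads. The same contrast held for Gngt1 and Gng11, 6.47 kb apart on chromosome 6, with Gngt1 listed at 0, and for Gna15 and Gna11, 4.499 kb apart on chromosome 10, at 1.41 ± 0.434 against 41.8 ± 6.53 CPM per kilobase. Gnaq and Gna14, 48.3 kb apart on chromosome 19, were both well read, and Gnaq exceeded Gna14 2.17 ± 0.343-fold per kilobase.

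Chromosome 1 holds 11 of the 21 RGS genes. Rgs4 and Rgs5, 45.7 kb apart, were both among the 3 highest of the family per kilobase, and Rgs4 exceeded Rgs5 10.8 ± 2.93-fold, with libraries between 6.86 and 13.8. Rgs2, Rgs13, Rgs1, Rgs21 and Rgs18 lie in a stretch of 776 kb (chromosome 1, 143999338 to 144775435). In that stretch Rgs2 was read at 14.4 ± 3.34 CPM and Rgs18, known from platelets, at 1.89 ± 0.568 CPM, and Rgs13, Rgs1 and Rgs21 were below 1 CPM.

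The shares of several leading members changed less between libraries than the levels did. The summed alpha level was 1.79 times as high in female 1, the highest library, as in male 1, the lowest, and 1.31 times with median-ratio scaling, while the share of Gnaq in the alpha level per kilobase lay between 10.3% and 12.2% and that of Gnai2 between 11.8% and 13.7%. Gnb5 held between 4.67% and 5.32% of the beta level. The Gng3 share of the gamma level lay between 48.1% and 58.97%. This did not hold for every member. The Rgs5 share of the RGS level lay between 5.24% and 9.35%, while its level lay between 41.1 and 50.4 CPM. The Rgs17 share lay between 1.48% and 5.19%, and its level between 11.9 and 37.8 CPM. The alpha sum exceeded the sum of Gnb1 to Gnb4 1.84 ± 0.0657-fold per kilobase, between 1.75 and 1.93 in single libraries; with principal coding lengths the ratio was 2.33 ± 0.0842 (SD, n = 8).

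**Figure D2:**
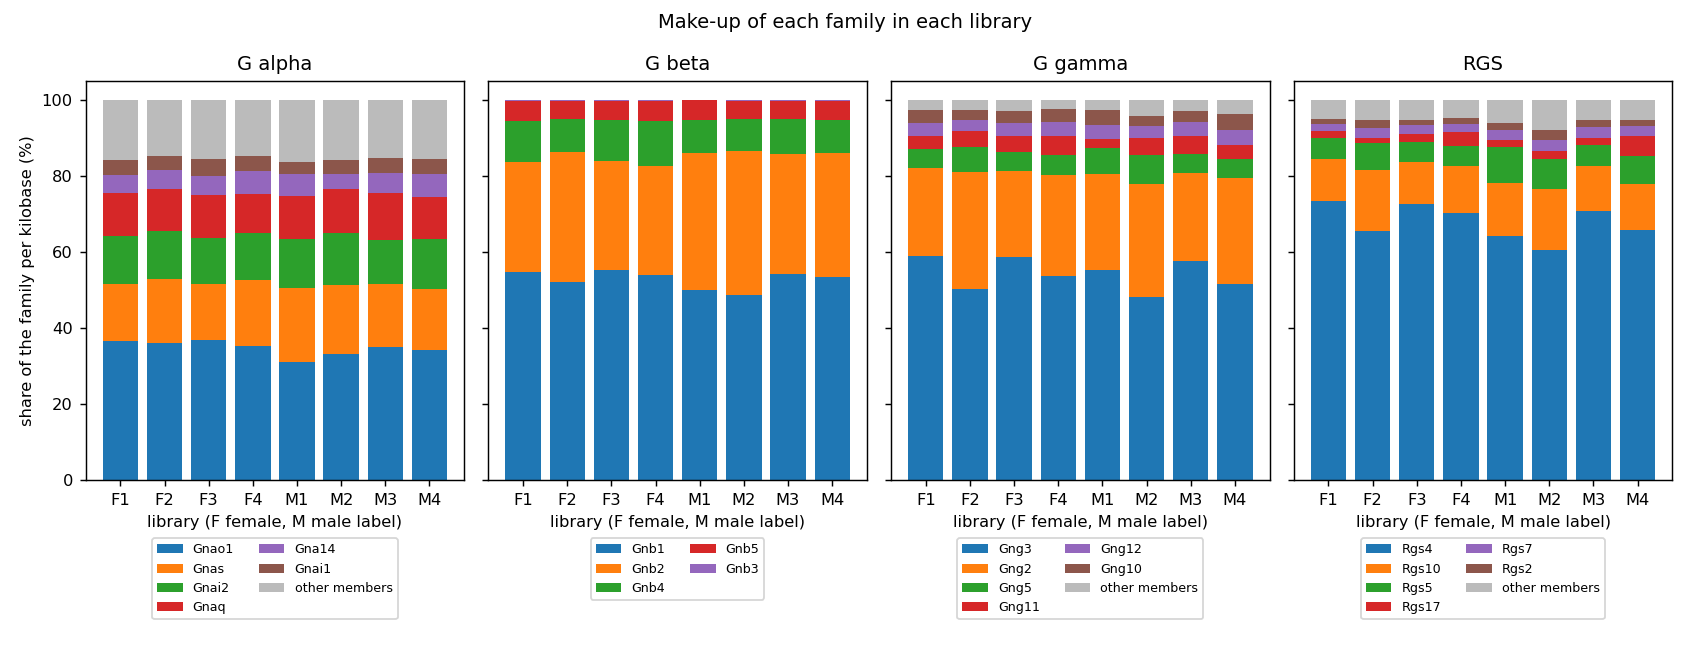
Share of each member in the level of its family per kilobase of coding length, in percent, in the libraries labelled female 1 to 4 (F1 to F4) and male 1 to 4 (M1 to M4); the 6 highest members are coloured and the others grey. Rgs4 holds between 60.5% and 73.5% of the RGS bar. Gnao1 holds between 30.9% and 36.8% of the alpha bar and Gnas between 14.9% and 19.5%.

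Some members share sequence with other genes, so that their reads could be placed elsewhere. Of the 28-base words in the principal coding sequence, 28 bases being the shortest footprint selected, 75.0% in Gng5, 57.8% in Gng10, 48.0% in Rgs3 and 24.9% in Gng2 also occur in a transcript of another gene, pseudogenes for Gng5 and Gng2 and an overlapping gene (Gm20503) for Gng10. The values of Gng10 lay more than 0.02 of a read from a whole number in 7 of 8 libraries, the only member where this held in more than 1 library. The other members with at least 10 CPM shared at most 2.69% (Gnai2). Levels of Gng5, Gng10, Rgs3 and Gng2 are uncertain to that extent.

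Members differed in how steady their CPM values were across the 8 libraries. Of the 31 members with at least 10 CPM, Rgs5, Gng12, Gnb2, Gnas and Gng10 had the smallest coefficients of variation (SD over mean), between 8.13% for Rgs5 and 15.6% for Gng10. Rgs17, Gnaz, Rgs4, Gnai1 and Gnai3 had the largest, between 29.95% for Gnai3 and 44.6% for Rgs17. The median over these 31 members was 21.2%, and that over the 9238 coding genes of at least 10 CPM was 17.1%. Counting error alone would give 7.79% for Rgs17, 1.56% for Rgs4 and 5.66% for Rgs5. Spread in CPM depends in part on the scale. The sum of all 54 members was 1.84 times as high in the highest library as in the lowest, and 1.34 times with median-ratio scaling. Coefficients of single members on that scale are not given here.

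Rgs17 was highest in the libraries numbered 4 of both labels. It was at 21.3, 12.9, 26.2 and 37.8 CPM in female 1 to 4 and 11.9, 14.5, 20.4 and 36.4 CPM in male 1 to 4. The other 6 libraries lay at or below 26.2 CPM. Gng2 was highest in both libraries numbered 2, at 85.2, 117, 84.9 and 94.4 CPM in female 1 to 4 and 56.3, 110.5, 73.5 and 81.98 CPM in male 1 to 4. Gng5, at 17.3, 23.4, 18.5 and 18.4 CPM in female 1 to 4 and 14.3, 27.2, 15.3 and 13.9 CPM in male 1 to 4, was highest in the same pair. In all, the 2 highest libraries shared a number in 9 of the 44 members tested, and in 16.1% of all genes tested; what the number marks is not given in the labels.

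**Figure D3:**
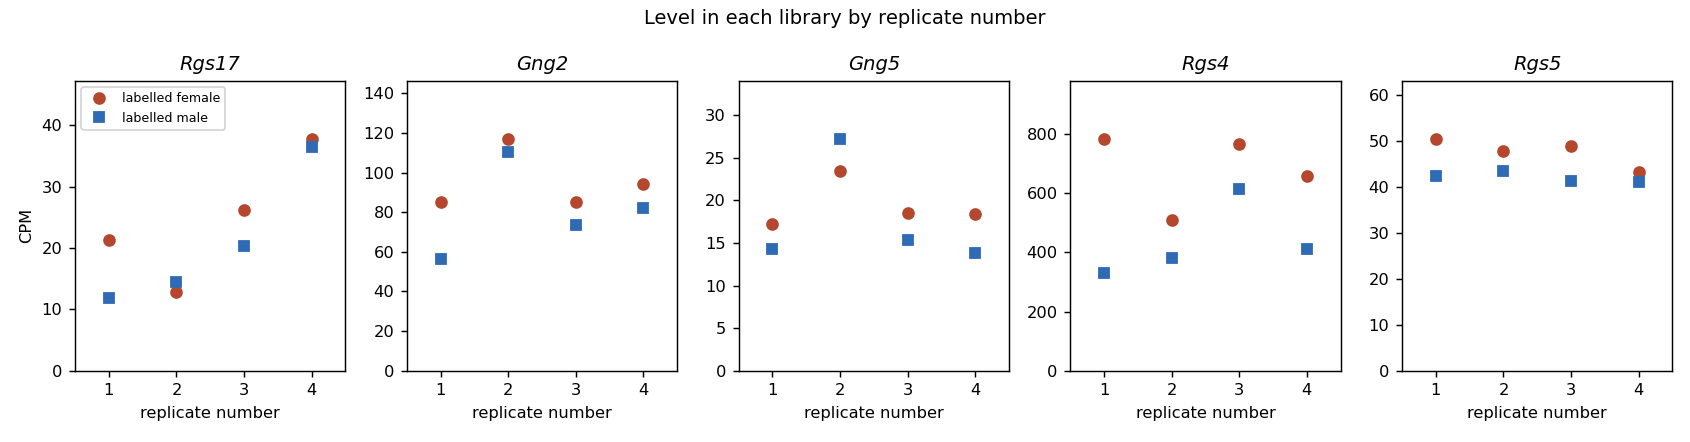
CPM of 5 members by replicate number, circles for libraries labelled female and squares for those labelled male; each axis starts at 0. Rgs17 is highest in both libraries numbered 4, Gng2 and Gng5 in both numbered 2, Rgs4 spreads from 330 to 782 CPM and Rgs5 stays between 41.1 and 50.4 CPM.

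Marker genes of other cells moved between libraries as well, and their part in these differences was not tested. Male 2 had the highest summed level of the 8 central glia markers, at 526 CPM against 198 to 262 CPM in the other 7 libraries, and all 8 were above 1 CPM. Neutrophil markers, 8 of 8 above 1 CPM, ran from 456 CPM in male 1 to 1693 CPM in male 2. As a ratio of highest to lowest library, 3.72, this was the widest of the marker lists whose genes were all above 1 CPM. Male 2 was also highest of the 8 for the macrophage, endothelial, fibroblast and Schwann cell sums, and the highest male library for Gng2, Gng5 and Gna12. Rgs5 was at 50.4, 47.9, 48.8 and 43.3 CPM in female 1 to 4 and 42.5, 43.4, 41.3 and 41.1 CPM in male 1 to 4, and the 9 mural cell markers, all above 1 CPM, summed to between 675 and 861 CPM in female 1 to 4 and between 697 and 904 CPM in male 1 to 4. The mural sum was highest in male 1 and lowest in female 4, while Rgs5 was highest in female 1 and lowest in male 4. Single mural markers did not peak together: Acta2, Tagln and Abcc9 were highest in female 1, like Rgs5. Myh11 and Notch3 were highest in male 1, Cspg4, Pdgfrb and Kcnj8 in male 2, and Des in female 3. Whether Rgs5 followed mural cells was not tested. Skeletal muscle markers, 8 of 8 above 1 CPM, were highest in female 1 and female 3, at 8329 and 8259 CPM, the 2 libraries in which Gnao1, Gnaq, Gnb1 and Rgs4 were also highest. Sensory neuron markers were likewise highest in those libraries, at 15446 and 14948 CPM, and lowest in male 1 at 10605 CPM. As female 1 and female 3 differed in only 1.26% of coding genes by the chi-square test above, their agreement may add little to that of 1 library.

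No member passed the test between the labels. The comparison asks whether ribosome occupancy in DRG differs between the labels. With 3 libraries against their labels, it does not compare female with male mice. It was fitted with limma on log2(CPM + 1) over the 15720 genes averaging 1 CPM or more. Each fold change given is mean log2(CPM + 1) in libraries labelled female minus that in libraries labelled male, a scale that understates the change of low genes. Of the 44 members tested 0 passed at a limma adjusted p of 0.05, with a smallest limma adjusted p of 0.372, against 0.00% of all genes; with the replicate number as a block 0 members passed (smallest limma adjusted p = 0.117), against 0.172% of all genes. At an unadjusted p under 0.05 there were 16 members, all higher in libraries labelled female, where 11.9% of all genes were higher at that p.

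The alpha genes summed to 2225 ± 260.1 CPM under the female label and 1684 ± 270.2 CPM under the male label (SD, n = 4 each, no test). On the same terms the beta sum was 928 ± 83.4 CPM (female) and 703 ± 132 CPM (male), the gamma sum 382 ± 10.9 CPM (female) and 311 ± 63.0 CPM (male), and the RGS sum 1040 ± 143 CPM (female) and 727 ± 161 CPM (male). The labels overlapped in all 4 sums, through female 2 and male 3 in alpha, beta and RGS genes and through female 4 and male 2 in gamma genes. Within libraries of the same number, the library labelled female was above that labelled male in 4 of 4 pairs for each sum. These are pairs of labels only. Female 1 and male 1 were reversed in Y-linked genes, at 121 and 2.70 CPM, and female 3 and male 3 were both high, at 138 and 125 CPM. Without the 3 libraries against their labels the means were 2005 CPM (female, n = 2) and 1783 CPM (male, n = 3) for alpha, 857 CPM (female) and 752 CPM (male) for beta, 379 CPM (female) and 338 CPM (male) for gamma, and 931 CPM (female) and 781 CPM (male) for RGS genes. The alpha gap was then 222 CPM, where all 8 libraries gave 540.3 CPM. The members leaned to the female side, as all genes did. By sign alone 41 of 44 members were higher in libraries labelled female, against 71.7% of all genes, and the median log2 fold change was 0.30 for members and 0.15 for all genes. All 13 alpha genes tested and all 5 beta genes lay on the female side, with Gna12 on the male side under quantile and median-ratio scaling, and 8 of 9 gamma and 15 of 17 RGS genes did, with Rgs18 on the male side under median-ratio scaling and when only protein-coding genes set the scale. With median-ratio scaling, which moves the median of all genes to 0.0042, the median of the members was 0.16, and 39 of 44 were higher in female against 50.5% of all genes. Without the 3 libraries that went against their labels, 37 of 44 members were higher in female against 52.4% of all genes, the median was 0.12 against 0.012, and 0 members had an unadjusted p under 0.05, against 1.93% of all genes.

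On the female side the 5 members of smallest p were Gnb4, Gnaz, Gnb3, Rgs4 and Rgs10. Gnb4 averaged 94.02 ± 15.7 CPM under the female label and 59.3 ± 13.03 CPM under the male label (SD, n = 4 each; log2 fold change 0.66, SE 0.18, limma adjusted p = 0.372). Gnaz was at 46.4, 32.7, 42.1 and 29.9 CPM in female 1 to 4 and 19.5, 23.9, 30.6 and 20.5 CPM in male 1 to 4 (log2 fold change 0.66, SE 0.18, limma adjusted p = 0.372), and the labels overlapped through female 4 and male 3. The log2 fold change of Rgs4 was 0.66 (SE 0.20, limma adjusted p = 0.372), and without the 3 libraries against their labels 0.33. Without those libraries Gnb4 was at 0.39 and Gnaz at 0.33, each below its value with all 8 libraries. Calls appeared only where both libraries of 1 number were left out beside the replicate block, a choice made after seeing the data. Without number 2 of both labels Gnb4 passed (limma adjusted p = 0.0414), 1 of 44 members against 0.639% of all genes. Without number 3 Gnb4 and Rgs4 passed (limma adjusted p = 0.0424 and 0.0146), 2 of 44 against 1.04%. Without number 1 and without number 4 no member passed, against 0.0381% and 0.805% of all genes. Over all alternatives run the limma adjusted p of Gnb4 ran from 0.0414 to 0.9995 and that of Rgs4 from 0.0146 to 0.9995.

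Rgs10 and Gnb3 were separated by label in all 8 libraries. Rgs10 was at 104, 111, 101 and 104 CPM in female 1 to 4 and 63.8, 89.6, 90.1 and 66.9 CPM in male 1 to 4, with every library labelled female above every library labelled male (log2 fold change 0.45, SE 0.14, limma adjusted p = 0.372). Without the 3 libraries against their labels its log2 fold change was 0.39 (SE 0.18, limma adjusted p = 0.9995, 2 libraries against 3), and over all alternatives its limma adjusted p ran from 0.0623 to 0.9995. Gnb3, a low gene, was at 2.97, 2.11, 2.08 and 2.08 CPM in female 1 to 4 and 0.541, 1.26, 1.42 and 0.885 CPM in male 1 to 4 (log2 fold change 0.72, SE 0.21, limma adjusted p = 0.372), and its log2 fold change without the 3 libraries was 0.51. In 5 members the labels did not overlap, all with female above male: Gnai2, Gnao1, Gnb3, Gng3 and Rgs10. Among all genes 3.43% had this pattern, and the opposite one, male above female throughout, was found in 0 members and 1.13% of all genes.

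On the male side lay only Gng8, Rgs11 and Rgs20 of the 44 members tested, with all 8 libraries and CPM values. Gng8, a gamma subunit known from olfactory and vomeronasal neurons, was at 3.49, 4.92, 3.82 and 2.08 CPM in female 1 to 4 and 3.52, 7.95, 3.93 and 4.57 CPM in male 1 to 4, with its highest value in male 2 (log2 fold change -0.37, SE 0.26, limma adjusted p = 0.502). Rgs11 was at 3.49, 2.81, 4.34 and 4.71 CPM in female 1 to 4 and 4.06, 5.02, 4.80 and 4.87 CPM in male 1 to 4 (log2 fold change -0.25, SE 0.18, limma adjusted p = 0.509). Rgs20 had a log2 fold change of -0.10 (SE 0.22), positive without female 4 and without male 2, at 0.025 and 0.039. These 3 genes averaged below 10 CPM. Without the 3 libraries against their labels Gng8 was at -0.55, Rgs11 at -0.34 and Rgs20 at -0.16, and Gna12, Gng4, Rgs8 and Rgs14 joined them on the male side.

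**Figure D4:**
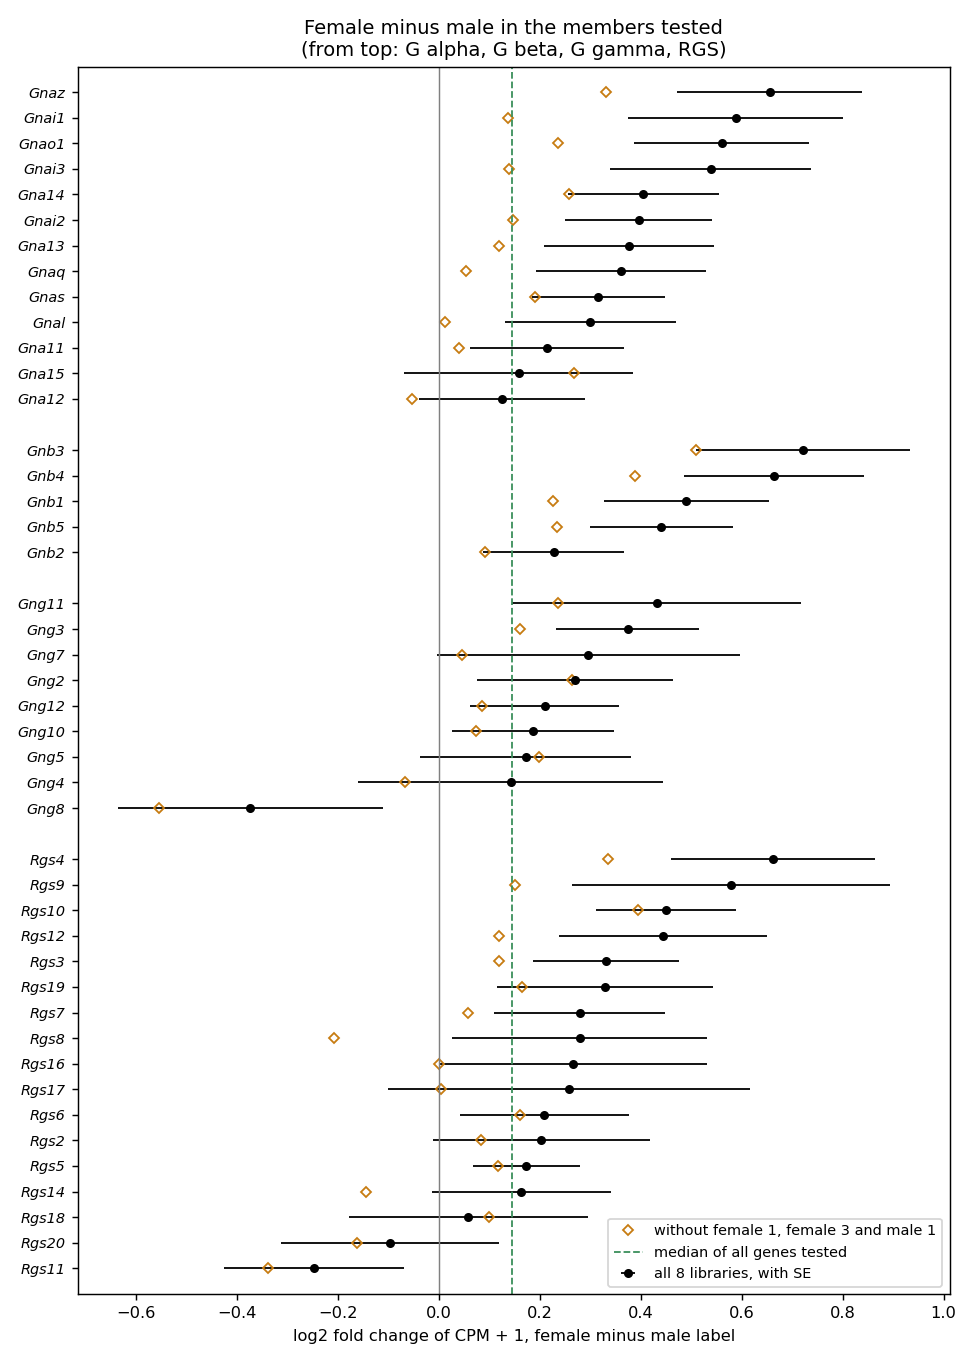
Log2 fold change of CPM + 1, female minus male, for the 44 members tested: black points with SE for all 8 libraries, open diamonds without female 1, female 3 and male 1, and a dashed line at the median of all genes tested, 0.15. No member passed the adjusted threshold. Most diamonds lie nearer to 0 than the black points, and Gng8, Rgs11 and Rgs20 lie on the male side in both.

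The most abundant members showed the same lean without passing. Gnas averaged 833 ± 59.1 CPM under the female label and 673 ± 95.7 CPM under the male label (SD, n = 4 each; log2 fold change 0.32, SE 0.13, limma adjusted p = 0.372). Gnao1 had a log2 fold change of 0.56 (SE 0.17), Gnb1 of 0.49 (SE 0.16) and Gng3 of 0.37 (SE 0.14). Without the 3 libraries against their labels these were 0.19 for Gnas, 0.24 for Gnao1, 0.23 for Gnb1 and 0.16 for Gng3. Gnaq and Gnal, at 0.36 and 0.30 with all libraries, were at 0.054 and 0.011 without them.

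The enzymes, channels and helpers that work with these proteins were read beside them, as 54 genes in 11 lists, of which 49 were tested; 0 passed in either direction, against 0.00% of all genes without and 0.172% with the replicate block. By sign 35 of 49 (71.4%) were higher in libraries labelled female, against 71.7% of all genes (median log2 fold change 0.15 for both). Without the 3 libraries against their labels 26 of 48 were, against 52.4% of all genes. Among the 9 adenylyl cyclases, which make cyclic AMP, Adcy9 and Adcy3 were highest at 14.4 ± 1.44 and 7.15 ± 0.619 CPM per kilobase (SD, n = 8), and 7 of 9 were on the male side by sign, with and without those 3 libraries. Of the 4 phospholipase C beta genes, the Gq effectors, Plcb3 and Plcb4 were highest at 117 ± 22.8 and 16.4 ± 2.29 CPM per kilobase. The cyclic AMP-dependent kinase subunits Prkar1a and Prkar1b stood at 504 ± 139.9 and 304 ± 92.5 CPM per kilobase, and 6 of 6 in that list were on the female side by sign, with and without those 3 libraries (median log2 fold change 0.45 and 0.17).

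The other lists were led by genes across a wide range of levels. The receptor kinase and arrestin list was led by Arrb1 and Adrbk1 at 60.1 ± 12.4 and 52.7 ± 9.38 CPM per kilobase, and the exchange factors of the G12/13 class by Arhgef11 and Arhgef1 at 22.1 ± 4.31 and 15.7 ± 1.67. Of the potassium channel subunits opened by beta-gamma pairs, Kcnj3 was at 9.32 ± 1.94 and Kcnj6 at 1.46 ± 0.346 CPM per kilobase, and Kcnj5 and Kcnj9 averaged below 1 CPM. Rgs7bp and Gpr158, membrane anchors of the R7 group, were at 112 ± 21.3 and 40.2 ± 2.49 CPM per kilobase, both above the 31.7 ± 5.82 of Rgs7 by their means. Rapgef4 and Rapgef3, exchange factors driven by cyclic AMP, were at 17.7 ± 4.59 and 6.71 ± 0.693. The G protein chaperones were led by Pdcl3 and Ric8a at 41.6 ± 5.05 and 40.5 ± 5.50, with Pdc, the phosducin of photoreceptors, listed at 0 in all libraries. The modulators of free alpha subunits were led by Gpsm2 and Gpsm1 at 9.32 ± 1.15 and 7.90 ± 1.18, and the prenylation and CaaX processing list by Zmpste24 and Fnta at 75.6 ± 43.6 and 69.5 ± 9.59 CPM per kilobase. Zmpste24 stood at 257 CPM in male 4, against 69.0 to 117 CPM in the other 7 libraries.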

How the data were processed

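Ribosome-bound RNA of DRG was collected on size-exclusion columns, depleted of ribosomal RNA, size-selected at 28 to 34 nt and made into small RNA libraries, per the labels' protocols. Per the submitters' processing notes, TopHat2 2.1.1 and Cufflinks 2.2.1 are named, as are FastQC 0.11.5 and Bowtie2 2.2.9, and GRCm38.p4 and mm10 are listed as builds. The role of each tool, and the gene models used, are not given there. The authors deposited 2 tables of 48431 rows named as TPM, but the deposited values are CPM: each column sums to 1000000, and 95.7% to 96.5% of values above 0 were whole multiples of 1 step per library, within 0.01 of a step, whatever the gene. Depths come from that step. The design assumed TPM, and its test on the log2 scale was kept; no count model was run, as the remaining values are not whole.

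Rows of 1 symbol were summed. Columns were matched by label and number. Coding lengths and positions came from GENCODE M21 (GRCm38; 99.2% of identifiers found). limma 3.58.1 in R 4.3.3 was run with an intensity trend and Benjamini-Hochberg adjustment over all genes averaging 1 CPM or more, and tested on simulated data first. Python 3.11.15, numpy 2.4.6, pandas 2.3.3 and matplotlib 3.10.9 did the rest. Members, lists and tests were chosen with earlier results of these data known. Libraries that share a number deviated together from their label means (correlation across genes 0.288, 0.492, 0.531 and 0.592). Libraries of different numbers were not compared in this way. The number, which no label states to be a pairing, was used as a block in alternative fits only, and the main fit held no block. Named were members of at least 10 CPM or among the 3 highest of a family per kilobase, the 5 of smallest p on each side, the 5 steadiest and 5 most variable, the 2 highest of each partner list, and neighbours and low members chosen after their values were seen. Alternatives covered pseudocount, filter, scaling, block, array weights, coding length and left-out libraries.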

Additional observations from a re-analysis of the deposited data

Results flagged for a closer look

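Within the 4 libraries of 1 label, 4 of 88 sets of values had 1 library far from the other 3 by Dixon's test, where chance flags about 1 in 20. Gna12 was at 26.1 CPM in male 2, where the other libraries labelled male reached 17.8 CPM. Gng5 was at 27.2 CPM in male 2, where the others reached 15.3 CPM, and the libraries numbered 2 of both labels were its 2 highest. Gng12 was at 9.74 CPM in male 1, the shallowest library, against at least 13.6 CPM in the other libraries labelled male. Gnb3 was at 2.97 CPM in female 1, against at most 2.11 CPM in the others labelled female. Male 2 also had the highest summed level of the central glia markers (526 CPM) and of the Schwann cell markers (19737 CPM); their part in the values of Gna12 and Gng5 was not tested.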

How the results depend on the processing

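Over all genes the count of calls was 0 with all 8 libraries, 27 with the replicate block and 5 without the 3 libraries against their labels; leaving out 1 library at a time it stayed at 0 (lowest and highest 0). With the block and without number 1, 2, 3 or 4 of both labels, alternatives chosen after seeing the data, it was 6, 100, 163 and 126. Among members 0 passed with the block and under every other setting and left-out library, except that with the block 1 passed without number 2 (Gnb4, limma adjusted p = 0.0414) and 2 without number 3 (Gnb4, 0.0424, and Rgs4, 0.0146), against 0.639% and 1.04% of all genes. Over all alternatives the adjusted p ran from 0.0414 to 0.9995 for Gnb4 and from 0.0146 to 0.9995 for Rgs4. The 16 members at an unadjusted p under 0.05 became 26 with array weights, 0 without the 3 libraries, 8 with female 1 and female 3 averaged, and 8 to 19 leaving out 1 library (9 without female 1, 8 without female 3 and 8 without male 1). Over all 44 members 7 turned in direction under some alternative (Gna12, Gng4, Gng7, Rgs8, Rgs14, Rgs18 and Rgs20). Of the 23 members followed by value, only Rgs20 did, without female 4 (0.025) and without male 2 (0.039), leave-outs running from -0.19 to 0.039. Dividing by the union of exons in place of coding length put Gnas (67.3) and Gnai2 (47.3) above Gnao1 (45.05 CPM per kilobase) and kept Rgs4 (179) above Gng3 (117). The 4 family levels moved by less than 1 SD with median-ratio scaling and when only protein-coding genes set the scale. Median-ratio factors were centred on a geometric mean of 1, so a mean of 8 libraries could hardly move under them. The ratio of the highest to the lowest library did move with that scaling. It went from 1.79 to 1.31 for alpha and from 2.04 to 1.52 for RGS genes. Leaving out 1 or 3 of the 8 libraries cannot move a mean by 1 SD of the 8, so those alternatives could not show a shift by this mark. The edgeR and DESeq2 alternatives were not run, as not all values are whole reads. Depth limits members near 1 CPM.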
